A study of Mus musculus with 2 samples.

Results

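Ventral neural tube progenitors are the dividing neuroepithelial cells on the belly side of the embryonic spinal cord. They were picked out of single-cell RNA profiles by their own transcripts. A member held at least 3 UMIs (unique molecular identifiers, tags that let each captured transcript be counted once) of Sox2, Sox3 and Hes5 together, from at least 2 of these neural progenitor genes. It also held at least 2 UMIs of Nkx6-1, Nkx6-2, Olig2 and Nkx2-2 together, and none of Pax3, Pax7, Meox1 or Elavl3, which mark dorsal neural tube, somite and newborn neurons. The rule found 407 cells among the 19446 cells kept at both stages. Of these, 401 came from the 9851 cells of E9.5 (4.07%, exact 95% interval 3.69% to 4.48%) and 6 from the 9595 cells of E11.5 (0.0625%, 0.0230% to 0.136%). These numbers moved with the rule. They were 262 and 10 after every cell was thinned at random to 5000 UMIs. With up to 1 UMI of Pax3, Pax7, Meox1 and Elavl3 together allowed, they were 595 and 13. Nearly all that follows is therefore about E9.5, and the 6 cells of E11.5 are described cell by cell at the end.

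Both libraries came from wild type C57BL/6 embryos, with no allele or treatment in either. Somites between the limb buds were dissected at E9.5 or at E11.5, those of 3 embryos were pooled, and the cells were captured in droplets. The dissection aimed at somites, so neural tube cells entered the tissue as neighbours, and how the dissection bears on the number recovered was not tested. With 1 library per stage there is no replicate, no difference was tested, and stage and library cannot be told apart.

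Away from the floor of the neural tube, Sonic hedgehog from the notochord and floor plate forms a gradient that divides progenitors into domains. Nkx6-1 and Nkx6-2 mark the ventral domains broadly, Olig2 the motor neuron progenitors, Nkx2-2 the domain beside the floor plate, and Foxa2 and Shh the floor plate itself. Hedgehog signal raises Ptch1, its own receptor and inhibitor, so that Ptch1 is widely used as a readout of the pathway. Bmp and Wnt signals from the roof plate pattern the dorsal progenitors, which carry Pax3.

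The 401 E9.5 members held 5418070 UMIs, with a median of 11429 UMIs and 3347 genes per cell. All E9.5 cells that were kept had a median of 12462 UMIs. Dorsal progenitors, for comparison, met the same neural threshold, held at least 2 UMIs of Pax3 and Pax7 together with at least 1 of Pax3, and none of the 4 ventral genes, Meox1 or Elavl3. There were 315 of them at E9.5 (median 14632 UMIs) and 55 at E11.5. Levels are given in UPM, the UMIs of a gene summed over the cells of a class per 1000000 UMIs of that class, and all intervals are exact 95% intervals that cover counting error only. The libraries shared 30 cell barcodes, and no member had a shared barcode. Scrublet, which scores droplets that may hold a pair of cells, called 15 of the E9.5 members (3.74%) against 5.80% of the E9.5 barcodes.

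The genes that chose the cells describe them and support nothing further. Among E9.5 members Sox2 was found in 388 cells, Sox3 in 336 and Hes5 in 356. Nkx6-1 was found in 354 members at a level of 195 UPM, Olig2 in 255 at 176, Nkx6-2 in 137 at 50.6 and Nkx2-2 in 28 at 6.46. Of the 401 members, 244 held Olig2 without Nkx2-2, 17 Nkx2-2 without Olig2, 11 both, and 129 neither, so that these entered through the Nkx6 genes alone. The label ventral progenitor thus rests mainly on Nkx6-1 and Olig2, and cells with Nkx2-2 were few. The condition of no Elavl3 left out 343 cells with enough neural and ventral UMIs, that of no Meox1 203, and that of no Pax3 or Pax7 87. Cells could be left out on more than 1 of these grounds.

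At the threshold on ventral genes, levels of several genes changed by steps. Cells that met every other condition fell into 333 with 0 UMIs of the 4 ventral genes, 125 with 1, 80 with 2, 161 with 3 to 5 and 160 with 6 or more. Across these 5 bins the level of Ptch1 was 68.3, 131.5, 155, 192.9 and 238.7 UPM. The level of Irx3, a factor of the intermediate neural tube, was 124, 63.5, 65.4, 48.7 and 21.4. The 125 cells just outside, with 1 UMI, were closer in Ptch1 and Irx3 to the 80 cells just inside than to cells with none, but this did not hold for every gene. Pax6 stood at 203, 192 and 142 UPM with 0, 1 and 2 UMIs with the cells of 1 UMI nearer to those with none, and Neurog2 at 48.7, 93.8 and 63.4, without steps. Nkx2-9 lay between the neighbouring bins (1.49, 11.8 and 24.2). Msx1, a dorsal factor, stood at 46.9 in cells with no ventral UMI and at 5.17 in those with 1. Median depth in these bins lay between 9466 and 12804 UMIs per cell.

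Among E9.5 cells of either neural class, 56.0% were ventral (52.3% to 59.7%), and among those of E11.5 9.84% (3.70% to 20.2%). Both shares depended on the processing. The E11.5 share was 30.3% after thinning to 5000 UMIs, with 10 members in place of 6. The E9.5 share ranged from 50.5% with at least 3 ventral UMIs to 79.2% after every cell was thinned at random to 5000 UMIs.

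The comparison with dorsal progenitors of the same E9.5 library asks which genes differ along the back-to-belly axis of the neural tube. Of 10020 genes with at least 30 UMIs in both classes together, 201 (2.01%) were at least 2-fold higher in ventral cells and 203 (2.03%) at least 2-fold lower. The median log2 ratio of all these genes was -0.03. Most genes were therefore close between the classes. By the interval bound nearest 0, the widest gaps were those of Nkx2-9 and Foxa2 upward and of Zic1 and Msx3 downward. The classes were defined by ventral and dorsal factors, so the directions below describe how far the rest of the transcriptome follows the choice.

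Floor plate genes were higher in ventral cells, and Foxa2 and Shh were nearly absent from dorsal cells. Foxa2, the factor that specifies floor plate, had 269 UMIs in ventral and 2 in dorsal cells, a log2 ratio of 7.03 (5.16 to 10.08). Shh, the ligand, had 176 against 1 (7.42, 4.92 to 12.73). All 5 floor plate genes with enough UMIs were at least 2-fold higher in ventral cells, with a median log2 ratio of 2.77, and these were Sulf1, Foxa2, Shh, Spon1 and Ntn1. The summed level of the list of 7 genes was 176 UPM in ventral and 17.7 in dorsal cells. The dorsal level was 93 UMIs in 69 of 315 cells (21.9%), led by Ntn1 with 36 and Spon1 with 29.

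Other factors of ventral domains followed. Nkx2-9, a relative of Nkx2-2 next to the floor plate, had 200 UMIs against 0, at least 64.8-fold higher when a class with 0 UMIs is set at a floor of 3 counts. Olig1, which lies beside Olig2, had 42 against 0, at least 13.6-fold. Genes outside the patterning lists that stood out were Timp3, an inhibitor of matrix proteases (238 against 20 UMIs, 3.53), Apela, a ligand of the apelin receptor (381 against 47, 2.98), Btbd17 (314 against 38, 8.03-fold), Elavl4, an RNA-binding protein of neurons (360 against 42, 3.06), Rhbdl3 (81 against 6, 3.71) and Tmem132e (41 against 2, 4.32).

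In the opposite direction, all 10 dorsal factors with enough UMIs were at least 2-fold lower in ventral cells, with a median log2 ratio of -5.44. Zic1 had 4 UMIs in ventral and 981 in dorsal cells (-7.98, -9.86 to -6.62) and Msx3 5 against 752 (-7.27). Olig3, of the most dorsal interneuron progenitors, had 6 against 303 (-5.70, -7.16 to -4.56). Prdm13 had 1 against 168 and Zic4 1 against 94, while Msx1 kept 30 UMIs against 868 (-4.90). Dorsal genes outside this list were lower too, among them Cck (0 against 150, at least 51.5-fold), Nrg1 (1 against 125) and Foxd3, a neural crest factor (0 against 52, at least 17.8-fold). Of the Foxd3 UMIs, 50 lay in dorsal cells with UMIs of Hox groups 6 to 9, and neural crest genes as a list were found in 24 of the 315 dorsal cells, with 83.1% of their UMIs in 10 cells. Intermediate factors were divided. Irx3 (-1.59, -1.82 to -1.37), Irx5 (-1.70) and Dbx1 (-1.48) were lower in ventral cells, Sp8 was higher (1.21, 0.82 to 1.61), and Pax6, which spans the middle of the tube, was within 2-fold (109.6 and 139.8 UPM, -0.35). Among cells without UMIs of Hox groups 6 to 9, Irx3 and Dbx1 did not pass 2-fold.

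**Figure D1:**
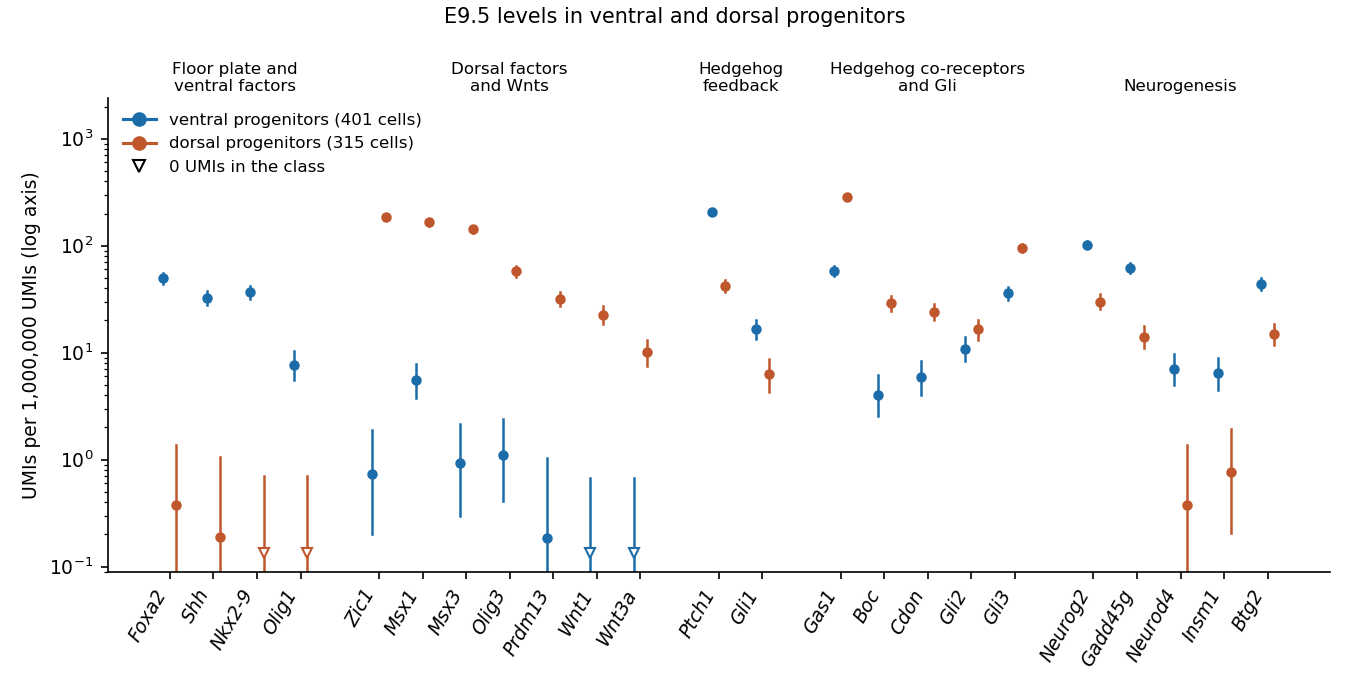
UPM (log axis) of 23 genes in 401 ventral (blue) and 315 dorsal (orange) progenitors of E9.5, with exact 95% intervals cut at the foot of the axis and open triangles for classes with 0 UMIs. Foxa2, Shh, Ptch1 and Neurog2 lie higher in ventral cells, and Zic1, Wnt1, Gas1, Boc and Gli3 in dorsal cells.

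Hedgehog pathway genes split by their role. The feedback targets Ptch1 and Gli1 were both at least 2-fold higher in ventral cells, with a median log2 ratio of 1.85. Ptch1 (chr13:63508328-63573598, minus strand, GRCm38) had 1119 UMIs, 206.5 UPM, against 223 UMIs, 42.4 UPM, in dorsal cells, so that the ratio was 4.87-fold (log2 2.29, 2.08 to 2.50). Gli1, the transcriptional activator that Hedgehog induces, had 90 against 33 UMIs (1.41, 0.82 to 2.03). In the cells with UMIs of Hox genes of groups 6 to 9, which mark the trunk, the Gli1 ratio was 0.95 (0.31 to 1.62), under 2-fold, and in those without it was 2.84 (1.22 to 4.87). By cell, 341 ventral progenitors held Ptch1 (85.0%), against 45.7% of dorsal progenitors and 27.8% of 309 endothelial cells of the library (median 14840 UMIs), which serve as a background. After thinning to 5000 UMIs these shares were 57.0%, 18.7% and 12.4%.

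The co-receptors went the other way. Gas1, which presents Shh to Ptch1 and is lowered by the signal, had 314 UMIs in ventral and 1501 in dorsal cells, 4.92-fold lower in the ventral class (-2.30, -2.48 to -2.12). Boc (22 against 152, -2.83) and Cdon (32 against 127, -2.03), the other cell surface partners, lay in the same direction, as did Gli3, the main repressor of the pathway (195 against 499, -1.40, -1.64 to -1.16), and Evc, a protein of the cilium base (18 against 58, -1.73). These 5 of 12 co-receptors and transducers were at least 2-fold lower, none higher, and the median was -0.67. Smo, the receptor's signalling partner, was near parity (391 against 337 UMIs, 0.17, -0.04 to 0.39). Scube2, which helps release the ligand, was lower in ventral cells (96 against 294, -1.66).

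The sequence CCACCCA, a core of Gli binding sites, was searched on both strands of the 250 bases before the start sites in RefSeq (GRCm38.p6). It lay in 8.11% of all 32851 promoters, in 7.86% of the 9802 matched to genes compared here, in 10.5% of the 191 promoters matched to 142 of the 201 genes higher in ventral cells, and in 5.32% of the 188 matched to 152 of the 203 lower ones. Each match is a description of letters, not of a bound site. The promoter of Nkx2-9, the gene with the highest floor-limited ratio, is shown with the match in capitals, which begins 207 bases before its start (chr12:56613458-56613517, minus strand).
Nkx2-9: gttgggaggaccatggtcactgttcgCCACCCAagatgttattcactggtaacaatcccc

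Wnt ligands lay mostly on the dorsal side, and Bmp genes mostly within 2-fold. Of 10 Wnt ligands and release factors, 7 were at least 2-fold lower in ventral cells, including Wnt1 (0 against 119 UMIs, at least 40.8-fold), Wnt3a (0 against 53, at least 18.2-fold), Wnt4 (59 against 331, -2.53) and Wls, the carrier of all Wnts (105 against 393, -1.95). Rspo3, which strengthens Wnt signals, had 5 against 98 (-4.33). Wnt7a (42 against 6, 2.77, 1.52 to 4.29) and Wnt5a (148 against 50, 1.52) were the ventral exceptions. Of 13 Wnt response genes and modulators, 4 were at least 2-fold lower (Sp5, Fzd10, Nkd1 and Axin2) and 2 higher, with a median of -0.78. The 2 were Tcf7l1 and Sfrp2, a secreted Wnt antagonist (2094 against 807 UMIs, 1.33, 1.22 to 1.45). None of 6 Bmp ligands and receptors passed 2-fold. Among 9 Bmp response genes and antagonists, Id2 (-1.46), Nog (-2.24) and Fst (37 against 343 UMIs, -3.25) were lower, and Id4 was higher (24 against 6, 1.96, 0.63 to 3.54).

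Over all cells of the classes, retinoic acid genes differed at 1 step and Fgf genes in both directions. Aldh1a2, which makes retinoic acid, had 56 UMIs in ventral and 370 in dorsal cells (-2.77, -3.20 to -2.36). No other of the 9 retinoic acid genes passed 2-fold over all cells. Among cells without UMIs of Hox groups 6 to 9, Aldh1a2 did not pass 2-fold (-0.89, -2.25 to 0.30). Cyp26b1 was higher there in ventral cells (126 against 81 UMIs, 1.39, 0.97 to 1.81). Among cells with such UMIs, Rdh10 was higher in ventral cells (38 against 12, 1.28, 0.31 to 2.35). Of 11 Fgf genes, 3 were at least 2-fold higher and 2 lower, with a median of -0.01. Fgfr3 (1.08), Dusp6, a target of Fgf signals (74 against 21, 1.78), and Etv4 (23 against 9, 1.31, 0.15 to 2.61) were higher, and the ligands Fgf15 (97 against 342, -1.86) and Fgf3 (10 against 35, -1.85) lower.

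Ventral cells held more of several genes that start neurogenesis, but not of all. Neurog2 (chr3:127633135-127635631, plus strand), the proneural factor of motor neuron progenitors, had 556 UMIs in ventral and 158 in dorsal cells, 102.6 and 30.02 UPM (1.77, 1.52 to 2.04). Gadd45g had 337 against 74 (2.15), Btg2, an antiproliferative gene, 240 against 79 (1.56), Insm1 35 against 4 (3.09) and Neurod4 38 against 2 (4.21, 2.25 to 7.30). These 5 of 8 proneural genes were at least 2-fold higher and none lower, with a median of 1.67. Insm1 and Neurod4 met the minimum of 30 UMIs only through the ventral cells, which set their direction. Neurog1 and Srrm4 lay lower in ventral cells among those without UMIs of Hox groups 6 to 9, but within counting error. They had 13 against 33 UMIs (-0.59, -1.64 to 0.37) and 9 against 25 (-0.72, -2.01 to 0.42). With such UMIs Neurog1 was level (17 against 13, 0.006) and Srrm4 higher (62 against 14, 1.77). On the Notch side, which holds neighbours back as progenitors, Mfng (141 against 35, 1.97), Nrarp (391 against 165, 2.30-fold), Hey1 (107 against 28, 1.89) and Hey2 (63 against 14, 2.13) were higher. These were 1 of 9 Notch ligands and receptors (median 0.48) and 3 of 9 effectors (median 0.67), with none at least 2-fold lower. Cells with Elavl3 had been left out of both classes, so later neurons are missing from this comparison by design.

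Axon guidance genes were divided between the sides. Ntn1, the attractant of commissural axons made by the floor plate, had 204 UMIs in ventral and 36 in dorsal cells (2.46, 1.94 to 3.01), and Spon1 204 against 29 (2.77). The midline repellents Slit1 (80 against 31, 1.33) and Slit3 (68 against 13, 2.35) were higher as well, with Ephb1. Receptors were among the genes lower in ventral cells: Dcc, the netrin receptor (7 against 42, -2.63), Unc5c (6 against 36, -2.63), Nrp1 (60 against 162, -1.47) and Epha7, with the ligands Efnb1 and Efnb2. That is 5 of 26 guidance genes higher and 6 lower. Among other large differences, Igfbp5, which binds insulin-like growth factors, was higher (427 against 71 UMIs, 2.55), while the secreted growth factor Ptn (1253 against 6141, -2.33) and the radial glia gene Fabp7 (137 against 583, -2.13) were lower.

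Cell cycle, timing and Hox genes did not pass 2-fold. None of 42 S phase genes, 52 G2 and M phase genes or 12 developmental timing genes passed 2-fold in either direction, with medians of 0.02, 0.04 and -0.24. Mki67, which marks cycling cells, stood at 227.6 UPM in ventral and 214 in dorsal cells. None of 23 Hox genes passed 2-fold, with a median of 0.11. The classes nonetheless differed in axial make-up, since 23.4% of ventral (19.4% to 27.9%) and 44.4% of dorsal cells (38.9% to 50.1%) held no UMI of Hox groups 6 to 9.

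A further look inside the E9.5 members separated cells by Foxa2, by Neurog2 and by Hox genes. These divisions were chosen after values had been seen, and every gene in them was measured in the same cells that were divided, so they are descriptions.

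Foxa2 was found in 82 members (20.4%), in 0.635% of dorsal progenitors and in 0.971% of endothelial cells (15.1%, 0.317% and 1.01% after thinning). All 35 members with Shh also held Foxa2. Of the 82 Foxa2 cells, 32 also held Olig2, which 255 of all 401 members held (63.6%). The Foxa2 cells included 23 of the 28 members with Nkx2-2. Another 33 had entered through Nkx6 genes alone, as had 129 of all members. Beside the 319 members without Foxa2, Shh had 176 UMIs against 0 (at least 217-fold higher), Ntn1 112 against 92 (log2 2.17, 1.76 to 2.59) and Slit1 68 against 12 (4.39, 3.49 to 5.41). Over all 8777 genes with enough UMIs, 3.03% were at least 2-fold higher and 2.05% at least 2-fold lower. Beside Foxa2, which divided the cells, the other 4 measured floor plate genes were at least 2-fold higher, 8 of 22 guidance genes were higher and 1 (Robo2) lower.

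Genes of the more dorsal domains and of neurogenesis were lower in the Foxa2 cells. Pax6 had 29 UMIs against 565 (-2.40, -2.99 to -1.86), Irx3 18 against 196 (-1.56) and Sp8 12 against 171 (-1.94). Neurog2 had 25 against 531 (-2.52, -3.16 to -1.94) and Gadd45g 23 against 314 (-1.88), and only 6 members held both Foxa2 and Neurog2. The Notch effectors Hes1 (1.58, 1.25 to 1.91) and Hey1 (1.91, 1.34 to 2.49) were higher. Ptch1 was 274 UPM with Foxa2 and 188 without (0.54, 0.35 to 0.73), within 2-fold. Genes outside the lists were among the highest, namely Car4, a carbonic anhydrase (109 against 19, 4.41), and Calca (47 against 6, 4.86, 3.63 to 6.38). Shh and Foxa2 also mark notochord, whose factors Noto and T had 0 UMIs and 1 UMI in all members together.

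Olig2 and Nkx6 cells without Foxa2 formed the other main groups. Taking the 96 Nkx6-only cells over the 218 with Olig2, 1.35% of 8154 genes were at least 2-fold higher and 1.34% at least 2-fold lower. Irx3 had 132 UMIs against 64 (99.4 and 22.2 UPM, 2.16, 1.72 to 2.62), Pax6 301 against 262 (226.7 and 90.9, 1.32, 1.08 to 1.56) and Irx5 67 against 69 (1.08). These 3 of 4 intermediate factors, which mark domains reaching dorsal of the motor neuron progenitors, were at least 2-fold higher. Nkx2-9 (4 against 66, -2.93) and Neurog2 (83 against 446, -1.31, -1.66 to -0.97) were lower. Ptch1 stood at 136 UPM in Nkx6-only and 212 in Olig2 cells (-0.63, -0.88 to -0.39). The groups also differed along the body axis, since 45.8% of Nkx6-only and 12.4% of Olig2 cells held no UMI of Hox groups 6 to 9, and how that bears on these ratios is given with the axis.

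The 17 cells with Nkx2-2 and no Olig2 held few UMIs in all, and 8.37% of 7787 genes were at least 2-fold higher and 7.58% at least 2-fold lower in the 244 Olig2 cells beside them. With 225338 UMIs of these genes in Nkx2-2 and 3252855 in Olig2 cells, counting error alone can move many genes past 2-fold. Of the 652 genes past 2-fold upward, 141 had an interval without 0, and of the 590 downward, 344. Floor plate genes lay on the Nkx2-2 side. Shh had 8 UMIs in Olig2 and 51 in Nkx2-2 cells (-6.51, -7.80 to -5.43) and Foxa2 57 against 70 (-4.14, -4.67 to -3.61), and all 5 measured floor plate genes were lower in Olig2 cells, with a median of -2.74. Slit1 (18 against 19, -3.92), Igfbp5 (107 against 122, -4.03) and Sepp1 (38 against 41, -3.95) followed. On the Olig2 side were Neurog2 (471 against 0), Sfrp2 (1401 against 15, 2.70, 1.98 to 3.55) and Id1 (1153 against 14, 2.52). The globins Hbb-y, Hba-x, Hba-a1 and Hbb-bh1 also lay on the Olig2 side. A single member carried 3811 of the 3931 UMIs of the red blood cell list, and without it Hbb-y had a log2 ratio of -0.13.

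**Figure D2:**
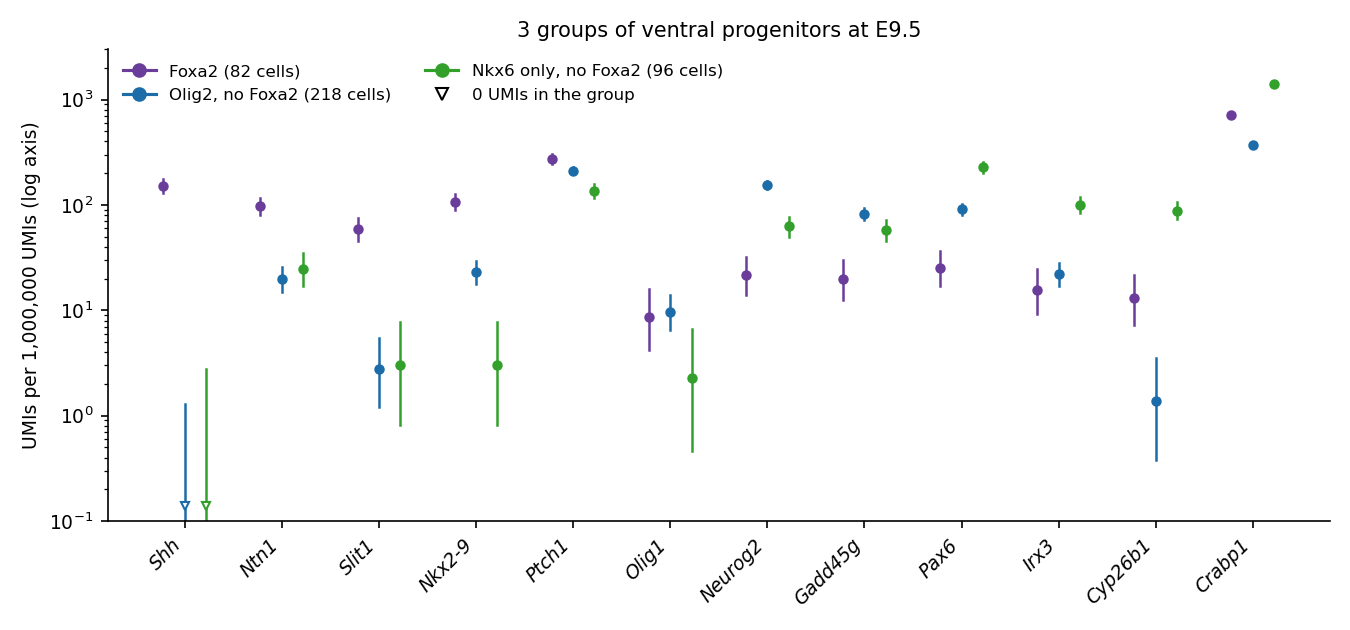
UPM (log axis) of 12 genes in 3 groups of E9.5 members, namely cells with Foxa2, Olig2 cells without Foxa2 and Nkx6-only cells without Foxa2, with exact 95% intervals and open triangles for 0 UMIs. Shh and Slit1 are highest in the Foxa2 cells, Neurog2 in the Olig2 cells, and Pax6, Irx3 and Cyp26b1 in the Nkx6-only cells.

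Neurog2 was found in 176 members (43.9%), against 20.6% of dorsal progenitors and 3.56% of endothelial cells (28.1%, 9.52% and 2.01% after thinning), and 141 of the 176 also held Olig2. Members were divided into 225 with no Neurog2 UMI, 95 with 1 or 2 and 81 with 3 or more. These bins use UMIs as counted, so they also sort cells in part by depth. Gadd45g had 245 UMIs in the cells with 3 or more and 50 in those with none (199 and 17.4 UPM, log2 3.52, 3.07 to 3.98). Dll1, the Notch ligand through which a cell that starts to differentiate inhibits its neighbours, had 85 against 52 (69.1 and 18.1 UPM, 1.93, 1.42 to 2.46). Srrm4 (43 against 19, 2.40), Neurod4 (21 against 10, 2.29), Btg2 (1.19) and, outside the lists, Prdm8 (1.58) were higher too. Beside Neurog2, which divided the cells, 4 of the other 6 measured proneural genes were at least 2-fold higher and none lower, while 0.536% of all 8207 genes were at least 2-fold higher and 2.60% at least 2-fold lower. Dll3, a relative of Dll1 (10 against 4, 2.54, 0.75 to 4.67), and the proneural factor Neurog1 (17 against 3, 3.73, 1.94 to 6.14) had fewer than 30 UMIs in all and are given as values only. Hes6 was higher by less than 2-fold (88 against 117 UMIs, 71.6 and 40.8 UPM, 0.81, 0.40 to 1.22).

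Cells with Foxa2 lay almost wholly among those with no Neurog2 UMI, so that Foxa2 had 6 UMIs in the cells with 3 or more and 253 in those with none, and Shh 0 and 176. The Notch effectors Hes1 (50 against 220, -0.91, -1.39 to -0.47) and Hey1 (10 against 82, -1.81, -2.93 to -0.86) were lower where Neurog2 was high, but not beyond counting error once the Foxa2 cells were left out. In the 78 and 149 cells that remained, the ratio of Hes1 was -0.20 (-0.75 to 0.34) and that of Hey1 -0.82 (-2.02 to 0.26), while that of Gadd45g was 3.68 (3.14 to 4.27) and that of Dll1 1.96 (1.38 to 2.58). In these cells 3 of the other 4 measured proneural genes were at least 2-fold higher and none lower, beside 0.517% of 7349 genes higher and 1.56% lower. Hes5, a gene of the rule, stood at 469 UPM in all cells with 3 or more Neurog2 UMIs and 351 in all with none. None of 42 S phase genes or 52 G2 and M phase genes passed 2-fold, with medians of 0.08 and -0.004. Mki67 stood at 227 and 228 UPM and Top2a at 493 and 523. Tubb3, a neuronal tubulin, stood at 13.0 and 17.4 UPM (-0.42, -1.33 to 0.42).

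**Figure D3:**
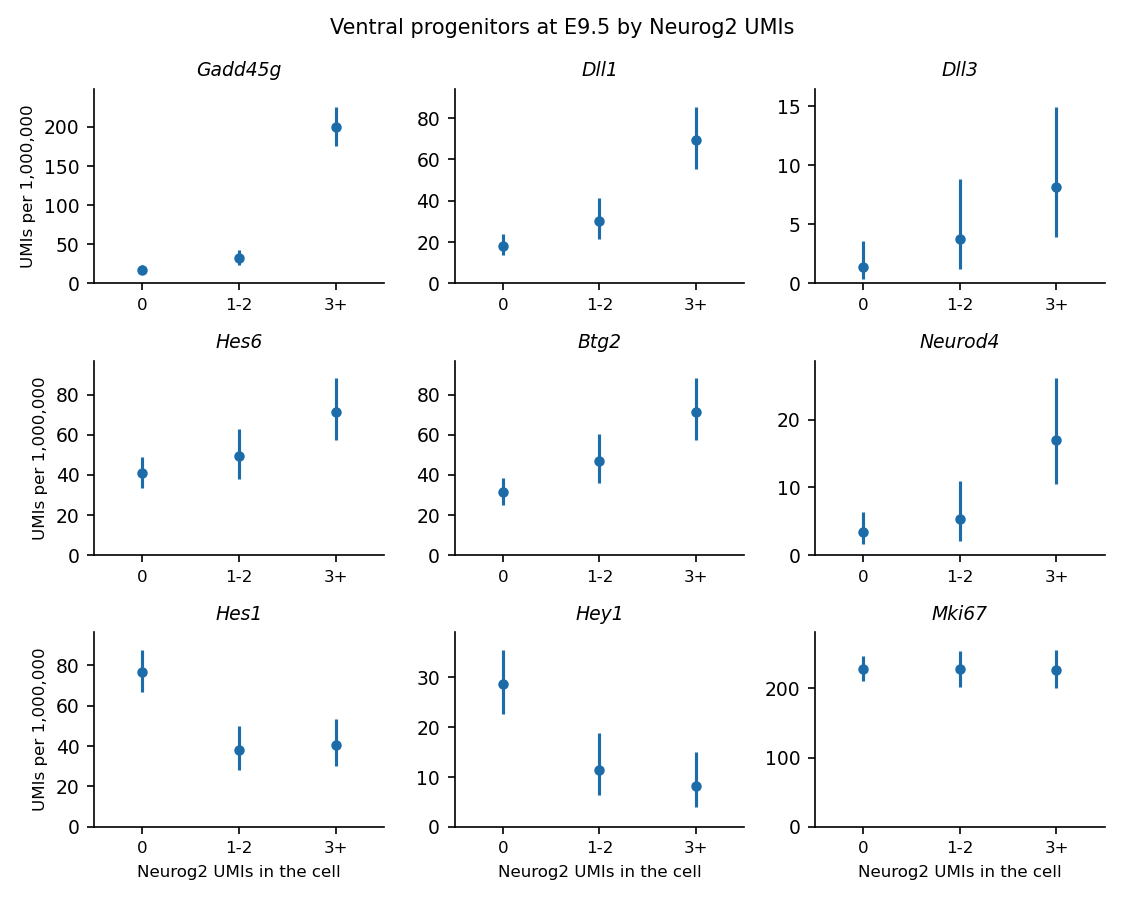
UPM of 9 genes (linear axes from 0, 1 panel per gene) in E9.5 members with 0, with 1 to 2 and with 3 or more Neurog2 UMIs, with exact 95% intervals. Gadd45g, Dll1 and Btg2 are highest in the last bin, Hes1 and Hey1 in the first, and Mki67 is level.

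The letters CAGCTG, an E-box that proneural factors can bind, were searched in the same 250 bases, and 13.0% of all 32851 promoters held them, as did 1078 of the 9802 matched to genes compared between ventral and dorsal cells. They lay in 15.7% of the promoters of genes higher in ventral cells and 13.3% of those lower. Of the genes whose interval lay above 0 where Neurog2 was high, 4 with a match are shown, and they were picked after the match was seen. Among them, Dll3 had too few UMIs to be compared and was given above as a value only. The share of promoters with a match among all genes higher where Neurog2 was high is not given. Whether Neurog2 acts on any of these genes was not tested. Capitals mark the match, which reads the same on both strands and begins 132 bases before the start for Dll1 (chr17:15377032-15377091, minus strand, in 1 of its 2 promoters), 7 for Dll3 (chr7:28301786-28301845, minus strand), 171 for Hes6 (chr1:91414177-91414236, minus strand) and 55 for Gadd45g (chr13:51846593-51846652, plus strand).
Dll1: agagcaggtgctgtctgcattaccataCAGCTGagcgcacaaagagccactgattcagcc
Dll3: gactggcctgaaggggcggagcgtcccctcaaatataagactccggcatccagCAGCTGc
Hes6: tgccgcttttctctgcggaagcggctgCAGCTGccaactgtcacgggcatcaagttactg
Gadd45g: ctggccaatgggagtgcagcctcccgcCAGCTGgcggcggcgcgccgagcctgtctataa

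Along the body axis the members were not uniform. Hox genes of groups 6 to 9 mark trunk levels of the spinal cord, and 94 of the 401 members (23.4%, 19.4% to 27.9%) held 0 UMIs of all 12 of them. Depth differed little between these cells (median 10803 UMIs) and the other 307 (11773). Among dorsal progenitors 44.4% held none, among endothelial cells 55.0% and among all kept cells 38.1% (29.9% of ventral, 49.2% of dorsal and 70.1% of endothelial cells after thinning). Anterior Hox genes were present in the cells without groups 6 to 9, where Hoxa2 stood at 82.1 against 39.2 UPM (log2 1.07, 0.69 to 1.43) and Hoxd3 at 25.7 against 11.6 (1.14). Egr2, a factor of hindbrain segments, was at 0 in all members. The dissection was described as inter-limb, a trunk level, and the 94 cells held none of the Hox genes that mark it.

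The same 94 cells differed from the rest by sex-linked transcripts. All 94 held Xist, the transcript that silences 1 X chromosome in females, and 2 held a Y-linked UMI. Of the 307 cells with posterior Hox UMIs, 203 held Xist and 90 a Y-linked UMI, and 27 held neither. Xist stood at 1108 UPM in the first class and 571 in the second, and the summed Y-linked genes at 1.66 and 44.9. Dorsal progenitors showed the same division, with Xist in all 140 cells without posterior Hox UMIs and a Y-linked UMI in 2 of them, against 52 of 175 with Y-linked UMIs among the others. Each library pooled 3 embryos, so axial level, embryo and sex cannot be told apart in these cells.

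Between these classes, 1.87% of 8777 genes were at least 2-fold higher in the 94 cells and 2.28% at least 2-fold lower. Cyp26b1, which breaks down retinoic acid, had 126 UMIs against 10 (104.5 and 2.37 UPM, 5.46, 4.53 to 6.56), and Crabp1, which binds it, 2689 against 1128 (2230 and 268 UPM, 3.06, 2.96 to 3.16). Trib2 (2.96), Pcdh8 (2.07), Ly6h (1.93) and Sfrp1 (1.61) were higher, and Ret (1 against 101), Ifitm1 (18 against 498, -2.99), Nrp2 (4 against 112) and Lef1 (8 against 120, -2.10) lower.

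Cells with Cyp26b1 were few and largely of this class. Of 18 members with Cyp26b1, 14 held no posterior Hox UMI, against 33 of 255 with Olig2 (12.9%, 9.08% to 17.7%) and 22 of 82 with Foxa2 (26.8%, 17.6% to 37.8%). Hox group 2 stood at 214 UPM in Cyp26b1 cells and 144.5 in Olig2 cells, while group 9 stood at 42.8 and 329. Foxa2 cells lay between them at group 9 with 219 UPM.

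**Figure D4:**
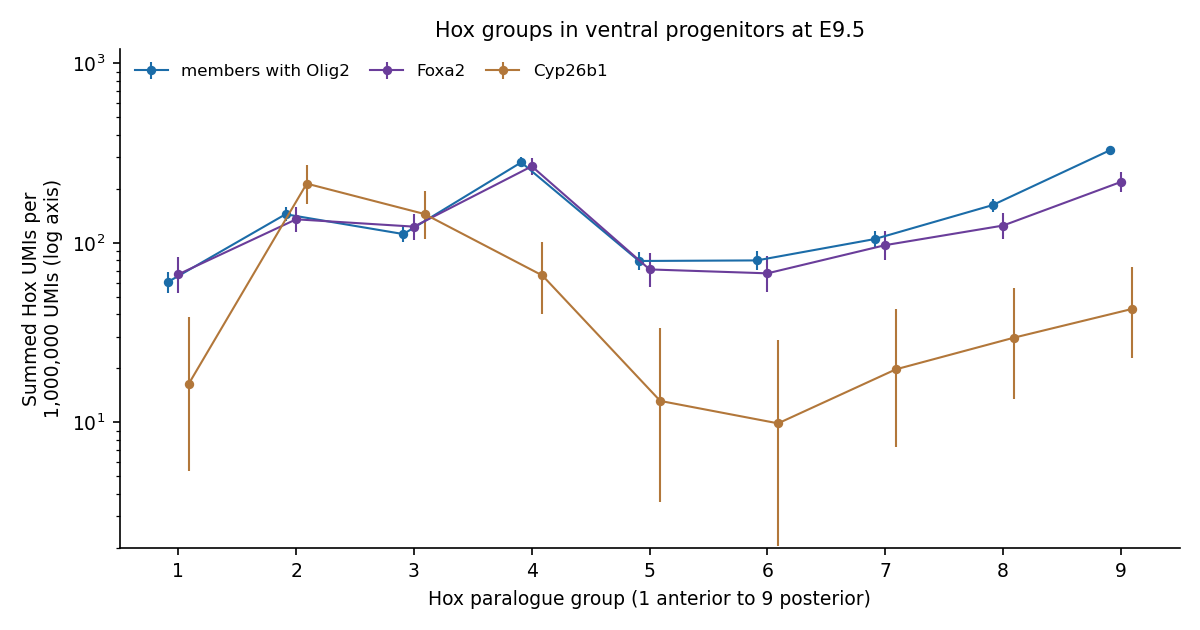
Summed UPM (log axis) of the Hox genes of each paralogue group from 1 to 9 in E9.5 members with Olig2, with Foxa2 and with Cyp26b1, with exact 95% intervals; a cell may be in more than 1 of these sets, and lines only join the points of a set. Group 9 is at 329 in Olig2 cells, 219 in Foxa2 cells and 42.8 in Cyp26b1 cells.

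The differences between ventral and dorsal cells were computed again within each class of the axis. Of the 201 genes at least 2-fold higher in ventral cells, 116 were so in both classes, 53 only in cells with posterior Hox UMIs, 28 only in those without and 4 in neither. Of the 203 lower genes these numbers were 107, 58, 35 and 3. Some of these genes had few UMIs within a class. All 10 dorsal factors, all 5 Hedgehog co-receptors and transducers, all 7 Wnt ligands and release factors that were lower, and 4 of 5 proneural and 4 of 5 floor plate genes that were higher passed 2-fold in both. Ptch1 was higher in ventral than dorsal cells by a log2 ratio of 2.15 (1.91 to 2.39) among cells with posterior Hox UMIs, 2.28 (1.84 to 2.73) among those without, and 2.25 among those with Xist and no Y-linked UMI. With and without posterior Hox UMIs, the ratio of Gas1 was -2.25 and -2.74, and that of Neurog2 1.82 and 1.08.

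Other genes did not hold to 1 value. Gli1 (0.95 and 2.84) and Slit1 (0.997 and 2.10) were under 2-fold in cells with posterior Hox UMIs, and so were Sulf1 and Id4 (0.43, -1.55 to 2.65). The ratio of Aldh1a2 was -3.23 (-3.69 to -2.79) with posterior Hox UMIs and -0.89 (-2.25 to 0.30) without, and that of Nog -3.01 and -0.83 (-2.46 to 0.56). Intermediate factors shifted as well. Dbx1 was at -2.78 (-4.19 to -1.60) with posterior Hox UMIs and -0.14 (-0.98 to 0.66) without, and Irx3 at -1.83 and -0.97 (-1.37 to -0.59). Pax6 changed sign, from -0.66 (-0.85 to -0.46) to 0.37 (0.09 to 0.65), while Irx5 (-1.71 and -1.46) and Sp8 (1.12 and 1.49) kept theirs past 2-fold. Btg2 (1.91 and 0.79) and Nrarp (1.38 and 0.99) fell under 2-fold without posterior Hox UMIs. The ratio of Fabp7 was -1.01 and -2.66, that of Ccnd1, a cyclin of G1 phase, -1.33 and 0.10 (-0.11 to 0.31), and that of Crabp1 -0.85 and -0.07.

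Within the ventral members, the Foxa2 division gave ratios of the same sign in both classes for the genes given here. The ratio of Neurog2 in cells with over without Foxa2 was -2.60 in cells with posterior Hox UMIs and -2.02 in those without, that of Pax6 -2.16 and -3.05, that of Hes1 1.54 and 1.82 and that of Ntn1 2.17 and 2.18. Spon1 was under 2-fold with posterior Hox UMIs (0.92, 0.41 to 1.41) and at 2.35 without. Ptch1 was at 0.61 (0.40 to 0.81) and 0.17 (-0.39 to 0.70).

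The division of Nkx6-only from Olig2 cells, both without Foxa2, varied more. Irx3 was higher in Nkx6-only cells by 2.29 (1.75 to 2.83) with posterior Hox UMIs and 1.45 (0.54 to 2.48) without, and Pax6 by 1.31 and 1.01. Irx5 was at 0.91 (0.25 to 1.55) and 1.09. Neurog2 was at -0.77 (-1.16 to -0.39), under 2-fold, with posterior Hox UMIs and at -2.33 (-3.25 to -1.47) without, and Ptch1 at -0.63 (-0.94 to -0.32) and -0.20 (-0.73 to 0.35). Cyp26b1 was concentrated in Nkx6-only cells without posterior Hox UMIs (110 UMIs in 44 cells), with 7 UMIs in the 52 such cells that held them.

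Transcripts of other cells were measured beside these results over whole lists. In E9.5 members the 9 mesoderm genes summed to 30.8 UPM, led by Twist1 at 12.9, and to 32.3 in dorsal cells. The 6 endothelial genes summed to 57.6 (led by Egfl7) and 48.3, and the 7 muscle genes to 6.46 (led by Mylpf, with Myod1 at 0) and 4.75. Of the ventral endothelial UMIs 45.5% lay in 10 cells, and of the dorsal ones 24.0%. Cdh5, 1 of 3 endothelial genes with enough UMIs, was at least 2-fold higher in ventral cells (1.70). The 5 neural crest genes summed to 4.61 (led by Ets1) and 33.6, with Sox10, Foxd3 and Erbb3 at 0 in ventral cells. White blood cell genes had 2 UMIs in all, and the 7 epithelial genes summed to 8.86 with Trp63 at 0. Red blood cell genes summed to 725.5 in ventral and 709.8 in dorsal cells, and 97.6% of the ventral UMIs came from 10 cells, chiefly the single member named above, which Scrublet did not call. Motor neuron genes had 12 UMIs (2.21 UPM) with Isl2 and Chat at 0, in cells chosen for having no Elavl3. The 8 neuron genes nonetheless summed to 127 UPM in ventral cells, led by Elavl4 at 66.4, against 75.2 in dorsal cells and 85.4 in all other kept cells, and 73.3% of members held at least 1 of their UMIs. Apart from the globin ratios, the part of these transcripts in the results was not tested.

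At E11.5 the 6 members held 60029 UMIs, with 16623, 9952, 9204, 8562, 7902 and 7786 in each, and none of them was called by Scrublet. Of 25 cells with enough neural and ventral UMIs, 17 held Elavl3. In that order of cells, Nkx6-1 had 6, 2, 3, 3, 4 and 0 UMIs, and the sixth cell entered with 2 UMIs of Nkx6-2. Sox9, a factor of progenitors that later turn to glia, had 11, 3, 1, 8, 3 and 4, and Fabp7 92, 52, 17, 43, 4 and 20. Every cell therefore held Sox9 and Fabp7, and none held Olig2. The first cell stood apart by the floor plate genes, with 12 UMIs of Shh, 5 of Foxa2, 21 of Spon1 and 20 of Sulf1, while the other 5 had none of Shh, Foxa2 or Sulf1 and at most 2 of Spon1. Neurog2 had 11 UMIs in the third cell, 2 in the sixth and 0 in the others. Hox genes of groups 6 to 9 had UMIs in all 6 cells.

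**Figure D5:**
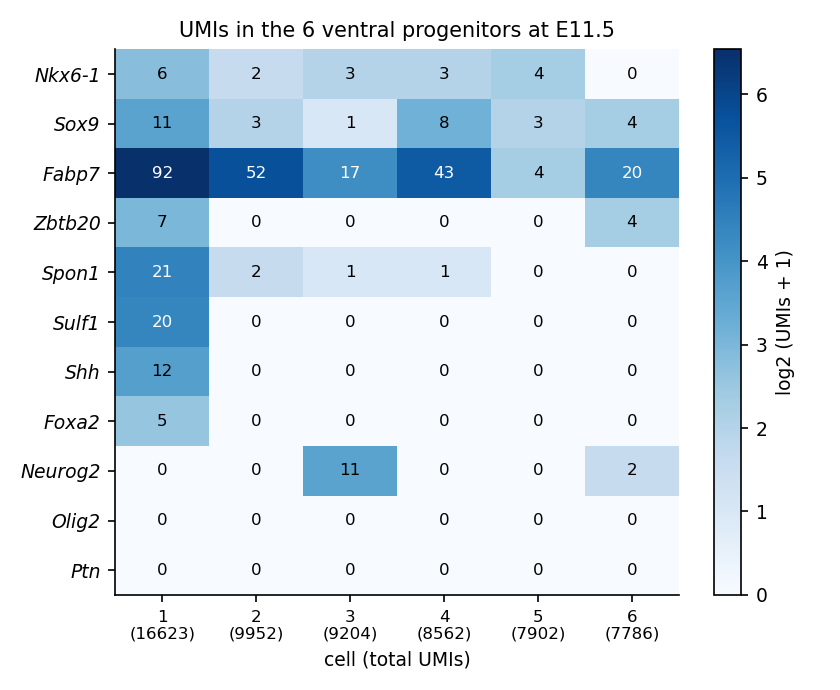
UMIs of 11 genes (rows) in each of the 6 E11.5 members (columns, with the total UMIs of the cell), written in each field and shaded by log2 of the UMIs plus 1. Shh, Foxa2 and Sulf1 appear in the first cell only, Fabp7 in all 6, and Olig2 and Ptn in none.

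Summed over these 6 cells and set beside the 401 of E9.5, Fabp7 had 228 UMIs against 137 (3798 and 25.3 UPM, log2 7.23, 6.92 to 7.55). The corresponding ratio was 5.00 in dorsal progenitors and 2.97 in all other kept cells. C130071C03Rik (7.62 in ventral, 7.25 in dorsal and 3.09 in all other kept cells) and Ldhb (4.44, 3.77 and 3.40) were higher at E11.5. So was Zbtb20 (11 against 34 UMIs, 4.87, 4.17 and 2.07). The 55 dorsal cells of E11.5 also held transcripts of other cells. Neural crest genes summed to 300 UPM there (33.6 at E9.5), muscle genes to 759 (4.75) and endothelial genes to 112 (48.3). Scrublet called 5 of these cells (9.09%), and what such transcripts add to the dorsal ratios was not tested. Fgfbp3 was higher in ventral cells (124 against 663 UMIs, 4.08) and lower in dorsal cells (-1.47), and Ly6h was 4.96 and 0.58. Sulf1 and much of Spon1 came from the first cell. Zbtb20 had 7 UMIs in that cell, 4 in the sixth and 0 in the others.

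Crabp1 (1 UMI against 3817, 16.7 and 704 UPM), Slc2a1, a glucose transporter (3 against 2854, -3.40, -5.68 to -1.85), and Prtg (3 against 2454, -3.18) were lower at E11.5. Among E9.5 cells with UMIs of Hox groups 6 to 9, which all 6 cells of E11.5 held, the Crabp1 ratio was -4.01 (-9.31 to -1.53) in place of -5.40. These shifts were not limited to ventral cells. In dorsal cells and in all other kept cells the ratio was -5.92 and -0.50 for Crabp1, -3.33 and -2.21 for Slc2a1 and -7.16 and -5.54 for Prtg. Ptn had 0 UMIs against 1253, at least 4.63-fold lower in ventral cells, and a ratio of 0.38 in dorsal cells. Npm1 (-1.56, -1.81 to -1.32), Ncl (-1.87), Ldha (-1.83) and Rrm2 (-2.31) were lower too. In dorsal and in all other kept cells Npm1 was at -1.001 and -1.023, Ncl at -1.41 and -1.34, Ldha at -1.30 and -1.66, and Rrm2 at -0.11 and -0.84. Of 8817 genes, 19.5% were at least 2-fold higher and 7.79% at least 2-fold lower, with counting intervals that are wide at this depth, so no list was counted for this comparison.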

How the data were processed

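Single-cell RNA was measured in 1 library of 3 pooled embryos per stage. The deposited values are raw UMI counts for 27998 genes, which the authors made with Cell Ranger 3.0.1 on mm10, before normalization and their filters on cells. Cells with at least 200 and fewer than 6500 genes and under 15% mitochondrial UMIs were kept here, without normalization, with numpy 2.4.6, scipy 1.17.1 and pandas 2.3.3 under Python 3.11.15. UMIs were summed per class. Levels have exact Poisson intervals, shares Clopper-Pearson intervals and log2 ratios exact conditional intervals. A class at 0 was set at 3 counts. Genes with at least 30 UMIs in the classes together were compared and counted; within Neurog2 and Hox classes genes with fewer are given as values. No test was made.

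Named genes were the 12 highest and 12 lowest by the interval bound nearest 0 (8 and 8 for Olig2 against Nkx2-2 cells), plus list members. Some genes are not reported here and were left out of the lists. The members and the lists were chosen with earlier results of these data known, and genes outside the rule, such as Hox, Xist and Y-linked genes, after their values were seen. Endothelial cells held at least 3 UMIs of Kdr, Pecam1, Cdh5 and Tie1 from at least 2 of them. Scrublet ran in scanpy 1.11.5; its automatic threshold called 0% of E11.5 barcodes, so the E9.5 threshold was used there (4.39%). Doublets were removed only in an alternative. The ratios were tested on simulated data. Positions are GENCODE M21 on GRCm38, and plots used matplotlib 3.10.9.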

Additional observations from a re-analysis of the deposited data

How the results depend on the processing

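The share of ventral cells, the counts of genes past 2-fold, list medians and Fabp7 were recomputed with stricter or looser thresholds, thinned cells, at least 1000 genes per cell, Scrublet calls left out, means over cells and a lower gene minimum. Of 73 such values 59 stayed within counting error or 1.5 times, and none changed direction. Of 465 such values of named genes, 399 did, 63 moved further and 3 changed sign. Of the values added after seeing the data, 28 of 34 and, for named genes, 177 of 240 stayed so, 6 and 59 moved further, and 4 of named genes changed sign. The E9.5 ventral share became 50.5% with a ventral sum of at least 3, 60.8% with excluded genes summing to at most 1, 65.6% with a dorsal sum of at least 3 and 79.2% in thinned cells, where the E11.5 share became 30.3%. With at least 10 UMIs per gene, 466 genes were higher and 432 lower in ventral cells, and 114 were lower after thinning. The Hedgehog feedback median was 2.62 in thinned cells, 1.28 with excluded genes summing to at most 1 and 1.41 with at least 10 UMIs per gene. It rested on Ptch1 and Gli1 in the reported value, on 3 genes in the last 2 and on Ptch1 alone when thinned. Thinning gave a median of -1.54 for floor plate in Olig2 against Nkx2-2 cells, from 2 genes in place of 5. The Fabp7 ratio between stages was 7.63 when thinned and 7.80 with excluded genes summing to at most 1.

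After seeing the data, cells with and without Hox 6 to 9 UMIs were added, with E9.5 shares of 63.7% and 40.2%. Their floor plate medians against dorsal cells were 2.30 and 4.07, and Hedgehog feedback was 2.28 in the cells without, from Ptch1 alone. In Olig2 against Nkx2-2 cells the floor plate medians were -1.79, from 4 genes, and -4.97, from 2. Without the Foxa2 cells, Hes1 and Hey1 over the Neurog2 division moved to -0.20 and -0.82. Globins turned with 1 cell. Without cells of 100 globin UMIs, Hbb-y was 0.76 between stages, and in Olig2 against Nkx2-2 cells Hbb-y was -0.13, Hba-x -0.19 and Hbb-bh1 -0.83. With a neural sum of at least 5 these were 0.84 for Hbb-y between stages, and -0.43 for Hbb-y and -0.37 for Hba-x. The cause of the other shifts was not tested. The 6 cells of E11.5 limit every comparison between stages. No paired analysis was possible because there was 1 library per stage.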
